A study of Mus musculus with 6 samples.

Results

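The Klra genes encode the Ly49 receptors, C-type lectin-like proteins of the mouse natural killer gene cluster on chromosome 6. Klra1, Klra4, Klra8, Klra9 and Klra10 were examined in RNA-seq of colorectal tumor cells. These 5 genes, of 21966 in the deposited table, were chosen by their measured values, since each had a higher FPKM (a level corrected for transcript length and for the number of fragments sequenced) with Pak inhibition. Their levels in the conditions are therefore a description and no test. Ly49 receptors are known from natural killer cells, where inhibitory members recognise MHC class I molecules and signal through a tyrosine motif in the cytoplasmic tail, and activating members lack that motif and signal through the adaptor Tyrobp (DAP12). The family arose by repeated duplication, its members are close in sequence, and the number of Klra genes differs between inbred mouse strains.

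The cells were primary lines from colonic adenomas of mice. PID+ cells carried CDX2P-NLS-Cre, APC^Δ/+ and ROSA26-PID, the last a Cre-activated allele of a GST-tagged peptide that inhibits Group I Paks, and the labels number their mice 4, 7 and 26. PID- cells carried CDX2P-NLS-Cre and APC^Δ/+ without the PID allele, and the labels number their mice 1, 2 and 3, which are not the study's numbers for these lines, and call them normal and untreated. Both groups thus shared the Cre and the Apc deletion, and the methods describe tumor lines in both. The CDX2 promoter restricts Cre to epithelium, mainly that of the large intestine and the distal small intestine. The study made 3 cell lines per genotype and does not state how many lines a mouse gave. The Rosa26 allele was made in G4 embryonic stem cells. Mice with the Rosa26 allele were crossed with Cre and APC^loxP/+ mice that the methods give as C57BL6/J, and PID- mice were littermate controls. The strain composition of each line, and the age of the mice that gave the lines apart from that of the cohorts, are not stated. The reads of the 3 samples of a condition were pooled by the authors, who called them replicated sequencing runs, so each gene has 1 FPKM per condition with the bounds of an interval from CuffDiff. The level of this interval is not stated, and it covers CuffDiff's own error model only. Without values per sample, differences could not be set against the spread of replicates, and no p-value is given. Changes were taken as the log2 of FPKM + 1 in PID+ less that in PID- cells. This makes changes of low genes look smaller than they are. The threshold was 3-fold on that scale. Pairs of values give PID+ before PID- cells throughout.

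All 5 members were at least 3-fold higher in PID+ cells, against 1.04% of all genes (229 of 21959 with usable values in both conditions), a share from which nothing is read because the same contrast chose the members. No member was 3-fold lower, against 1.72% of all genes (377). The pooled values do not tell apart more cells with a transcript and more of it per cell. When Gapdh was set equal between the conditions, 4 of the 5 remained past 3-fold. The deposited intervals were apart for Klra1, Klra4 and Klra8, and overlapped or met at 0 for Klra9 and Klra10, while 0.187% of all genes (41) were higher in PID+ cells with intervals apart. The nearest values outside the 5 were those of Klra3, with an FPKM of 1.28 in PID+ cells and listed at 0 in PID- cells, and Klra2, with a log2 change of 0.79. Just inside was Klra4, with a log2 change of 2.06.

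**Figure D1:**
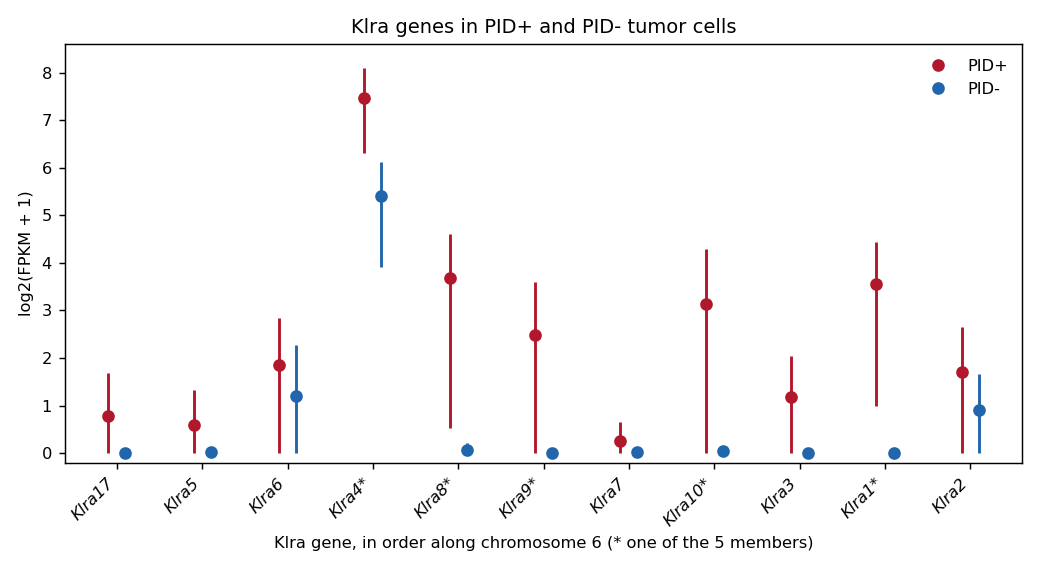
Points give log2(FPKM + 1) of each Klra gene in PID+ (red) and PID- (blue) cells and vertical lines the deposited interval, with genes in order along chromosome 6. Klra4 had the highest FPKM in both conditions, 175 in PID+ and 41.2 in PID- cells, and the other 4 members were at or near 0 in PID- cells.

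Of the activating receptors, Klra4 (Ly49D, ENSMUSG00000079852.4, chromosome 6 of GRCm38 from 130043731 to 130067271, minus strand) had an FPKM of 175 in PID+ cells, with an interval from 78.4 to 272. In PID- cells its FPKM was 41.2, with an interval from 14.0 to 68.5. Klra4 was thus well above 0 in both conditions, and its FPKM ratio was 4.24. Its level in PID+ cells was above that of 98.1% of all genes, and in PID- cells above that of 89.1%. Klra8 (Ly49H, ENSMUSG00000089727.2, from 130115226 to 130129898), the receptor that recognises mouse cytomegalovirus in infected cells, had an FPKM of 11.9 in PID+ cells, with an interval from 0.444 to 23.4. In PID- cells it had 0.0535, with an interval from 0 to 0.166. The log2 change of Klra8 was 3.62. Klra8 thus differed from Klra4 in that its PID- level was near 0.

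The other 3 members are inhibitory receptors, and none had an FPKM above 0.1 in PID- cells. Klra1 (Ly49A, ENSMUSG00000079853.4, from 130363917 to 130386874) reached 10.8 in PID+ cells, with an interval from 0.990 to 20.6, and was listed at 0 in PID- cells. Klra9 (Ly49I, ENSMUSG00000033024.13, from 130178675 to 130193112) had an FPKM of 4.61, with an interval from 0 to 11.2, and was listed at 0 as well. Klra10 (Ly49J, ENSMUSG00000072718.6, from 130269194 to 130281928) had 7.83 in PID+ cells, with an interval from 0 to 18.5, and 0.0333 in PID- cells, with an interval from 0 to 0.112. Across the table, 4 genes were listed at 0 in PID- cells with an FPKM of at least 4 in PID+ cells. Klra1 and Klra9 were among them, and the others, chosen after their values were seen, were Gm26741 (FPKM of 258) and Gm10964 (10.5). The cut of 4 lies just below the level of Klra9. Because the same values chose the members, nothing is read from this count.

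Among the members, the order of FPKM in PID+ cells was Klra4, Klra8, Klra1, Klra10 and Klra9. The lower bound of Klra4 lay above the upper bounds of all other Klra genes in both conditions, whereas the intervals of the other 4 members overlapped one another in PID+ cells. Klra4 made up 80.4% of the FPKM summed over the 11 Klra genes of the table in PID+ cells and 94.7% in PID- cells. Summed over the family, the levels were 218 and 43.5, which is 2.30 on the log2 scale. The 10 Klra genes other than Klra4 summed to 42.8 and 2.30.

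Low FPKM values fall on steps that give the approximate number of fragments behind a gene. For Klra4, about 12689 fragments were estimated in PID+ and 4102 in PID- cells. Klra8 had about 810 and 5, and Klra10 about 341 and 2, so their FPKM ratios of 223 and 235 rest on a few fragments in PID- cells. The values in PID- cells came out at 4.98 fragments for Klra8 and 1.99 for Klra10 before rounding. Klra1 and Klra9, with several transcripts or changed gene models, had roughly 1097 and 345 fragments in PID+ cells.

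The other 6 Klra genes of the table had lower levels than all members in PID+ cells, and none changed 3-fold with the pseudocount of 1. With a pseudocount of 0.1, Klra3 (log2 change of 3.78), Klra17 (3.05) and Klra5 (2.44) were past 3-fold. In PID- cells Klra6 and Klra2 were above every member except Klra4. Klra6 (Ly49F) had FPKM values of 2.64 and 1.30, and Klra2 (Ly49B), known from myeloid cells, had 2.27 and 0.888. These were the only 2 of the 6 with an FPKM of at least 2 in a condition, the level needed to reach 3-fold with the pseudocount of 1. Klra17 (Ly49Q), known from plasmacytoid dendritic cells, had 0.729 in PID+ cells and was listed at 0 in PID- cells. Its annotation overlaps that of 2 other genes. Klra3 (Ly49C) was likewise listed at 0 in PID- cells. Klra5 (Ly49E) had 0.501 and 0.0110, and Klra7 (Ly49G) 0.199 and 0.0144. All 11 Klra genes, of which the 5 members were chosen for it, were higher in PID+ cells as scaled by the authors, beside 41.0% of all genes. That share counts 4232 genes at 0 in both conditions as not higher, and no Klra gene was at 0 in both. Subtracting the median change of chromosome 6 put Klra7 at -0.10, from 0.24 without the subtraction, both with the pseudocount of 1. Without the subtraction and with a pseudocount of 0.1 its change was 1.39, and the subtraction was not run with that pseudocount. The intervals of all 6 overlapped between the conditions or met at 0.

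The coding sequences of the members were compared because reads of close paralogs can be assigned to several genes. Identity between the coding bases of 2 members ran from 77.6% (Klra4 and Klra10) to 96.9% (Klra9 and Klra10), with a median of 81.3% over 10 pairs. Transcripts were also cut into all windows of 50 bases, the read length in the labels. A window stands for a single read, whereas the study's reads were paired, and pairs were not examined. The other read of a pair can lie where genes differ. In Klra10, 39.8% of windows occurred exactly in transcripts of other genes, and 36.7% in those of Klra genes of the table. In Klra9 these shares were 32.4% and 30.6%. In Klra8 they were 33.1% and only 13.0%, since 230 of its 374 shared windows occurred in Klra14-ps, a pseudogene with no row in the table. In Klra4 and Klra1 the shares were 4.68% and 3.15%, so most windows of these genes had no exact match in transcripts of other genes. The FPKM of Klra8, Klra9 and Klra10 are therefore uncertain as levels of separate genes, and which exons the fragments of any Klra gene came from is not resolved.

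**Figure D2:**
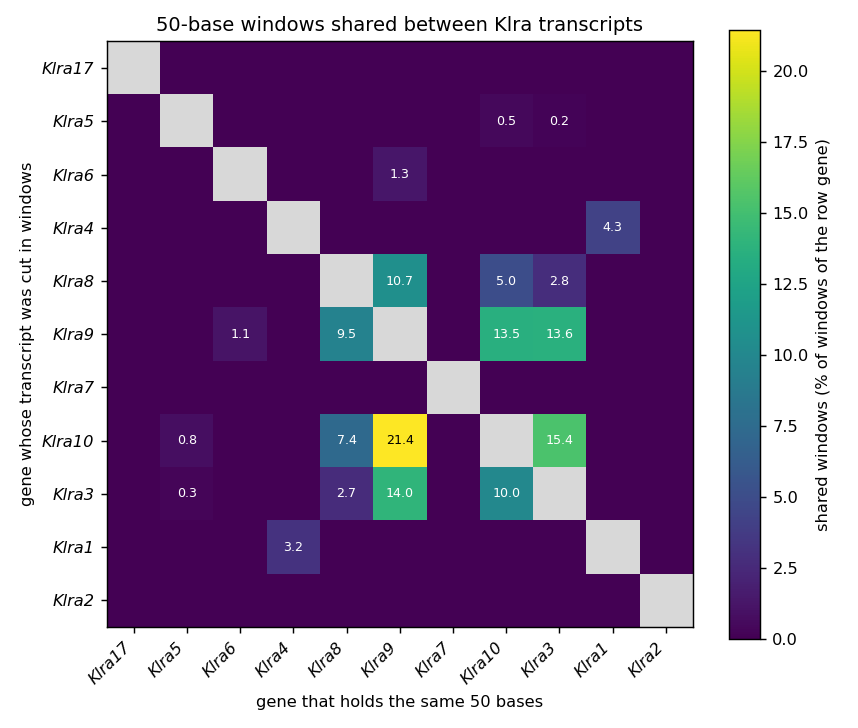
Each cell gives the percentage of 50-base windows in the transcript of the row gene that occur without a mismatch in the column gene, for the 11 Klra genes of the table in order along chromosome 6, and the diagonal is grey. The highest share was that of Klra10 with Klra9 (21.4%), and Klra2, Klra7 and Klra17 shared none with the others.

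Klra4 and Klra1 shared windows mainly with each other, 51 of 1196 windows in Klra4. Klra1 was listed at 0 in PID- cells, where Klra4 had an FPKM of 41.2. The longest stretch common to both transcripts, 78 coding bases over 2 exons, is shown because a single read within it fits either gene. The other read of the pair can lie where the genes differ. It lies at chr6:130044161-130053028 in Klra4 and chr6:130364342-130372884 in Klra1, with an intron within both ranges, and starts at coding base 593 and 590.
Klra4 and Klra1: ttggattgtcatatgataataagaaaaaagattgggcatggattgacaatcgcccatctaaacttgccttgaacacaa

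The first 45 coding bases show how the activating and inhibitory members differ at the signalling motif. Capitals mark codon 8, which in inhibitory Ly49 receptors encodes the tyrosine of the motif. It was TAC or TAT, the tyrosine codons, in Klra1, Klra9 and Klra10 and TTC in Klra4 and Klra8. All 6 other Klra genes of the table had a tyrosine codon there. The sequences are from Gencode transcripts (GRCm38, minus strand, each within 1 exon), at chr6:130065258-130065302 for Klra4, chr6:130128116-130128160 for Klra8, chr6:130380618-130380662 for Klra1, chr6:130191257-130191301 for Klra9 and chr6:130281878-130281922 for Klra10.
Klra4: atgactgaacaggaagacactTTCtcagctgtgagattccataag
Klra8: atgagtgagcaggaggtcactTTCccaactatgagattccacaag
Klra1: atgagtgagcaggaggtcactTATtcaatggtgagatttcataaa
Klra9: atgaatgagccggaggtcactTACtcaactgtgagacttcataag
Klra10: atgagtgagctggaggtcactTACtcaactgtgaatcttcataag

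Promoters of the Klra genes from RefSeq (GRCm38.p6, 250 bases before to 50 after the start) were searched on both strands for 6 words. All 11 Klra genes had a window. GCAATTTCC and AGGAGGGG, chosen after the sequences were seen, were each found in 8 of the 11, among them Klra4, Klra8 and Klra9, and in 0.298% and 5.40% of all 32851 promoters. TATAAA was found in 7 of the 11 (13.6% of all promoters), CCAAT in 6 (37.4%), CTTTGA in Klra6 and Klra7 (16.0%) and TGTGGT in Klra1 alone (16.8%). Neither GCAATTTCC nor AGGAGGGG was in the windows of Klra1, Klra10 or Klra7. The stretches before the start with GCAATTTCC and AGGAGGGG in capitals are shown for Klra4 (chr6:130067299-130067374), Klra8 (chr6:130129927-130130002) and Klra9 (chr6:130193113-130193174), all on the minus strand.
Klra4: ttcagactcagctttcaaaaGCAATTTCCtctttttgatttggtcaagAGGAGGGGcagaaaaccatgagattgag
Klra8: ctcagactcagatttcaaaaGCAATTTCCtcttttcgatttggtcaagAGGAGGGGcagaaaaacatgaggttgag
Klra9: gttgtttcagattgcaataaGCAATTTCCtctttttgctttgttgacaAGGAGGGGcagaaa

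The Klrb, Klrc, Klrd and Klrk genes lie beside the Klra genes and encode further lectin-like receptors of natural killer cells. Of the 10 with a row, 1 changed 3-fold, and 9 had an FPKM below 1 in both conditions. The gene past 3-fold was Klrc1, which encodes the inhibitory receptor NKG2A, with FPKM values of 6.35 and 1.20. The change of 1.74 (log2) came with overlapping intervals and was below 3-fold when Gapdh was set equal or the median of chromosome 6 was subtracted. Klrd1 (CD94), the partner with which NKG2A reaches the cell surface, had 0.0370 in PID+ cells and was listed at 0 in PID- cells. Klrk1 (NKG2D), Klrb1, Klrb1a and Klrb1f were listed at 0 in both conditions. The median change of the 10 genes was 0.03 on the log2 scale, beside 0 for all genes. Of 5 other Klr genes, 4 were below 1 in both conditions, and the most abundant was Klrg2, with 2.28 and 0.668, which did not change 3-fold.

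**Figure D3:**
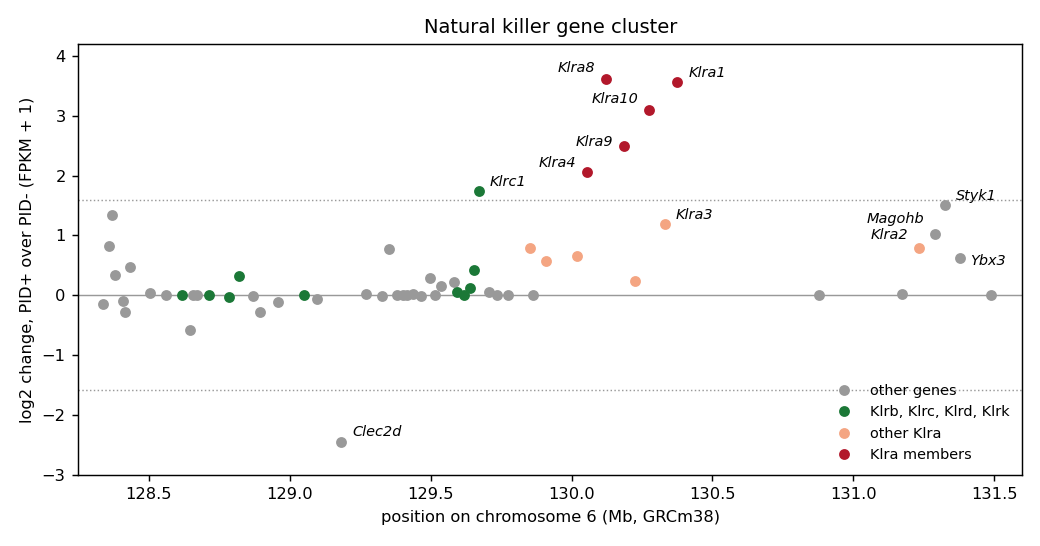
Each point is a gene of the table in the natural killer gene cluster and at its borders on chromosome 6, placed by its middle (Mb, GRCm38), with its log2 change of FPKM + 1 in PID+ over PID- cells, and dotted lines mark 3-fold. In the range shown, the 5 members (red) lie above the upper line, as does Klrc1, and Clec2d, with a log2 change of -2.45, lies below the lower line.

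Other genes of chromosome 6 were taken from a list of 14 further lectin genes, 13 of them within 2 Mb of the Klra genes, and a list of 25 non-lectin genes, of which 19 lie within 2 Mb. Clec2d, a lectin-like ligand of Klrb receptors, had FPKM values of 1.45 and 12.4 and was past 3-fold. The other 13 lectin genes were below 1 in both conditions and could not reach 3-fold on this scale. The same holds for 19 of the 25 non-lectin genes, 13 of them listed at 0 in both, and none of the remaining 6 changed 3-fold. The 3 nearest genes on the left with an FPKM of at least 1 in a condition were Klrc1, Gabarapl1 (15.5 and 13.7) and Clec2d. On the right, Magohb had 41.8 and 20.1, Styk1 44.3 and 15.0, and Ybx3, the most abundant of the 25, 293 and 189. Magohb began 37.0 kb from the end of Klra2.

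Of 17 adaptors and effectors of receptor signalling, 9 had an FPKM below 1 in both conditions. Tyrobp, the adaptor that activating Ly49 receptors need to reach the surface and signal, was listed at 0 in PID+ cells and had an FPKM of 0.0281 in PID- cells. Hcst (DAP10) had 0.0579 in PID+ cells and was listed at 0 in PID- cells. Klra4 and Klra8 transcripts were thus measured with next to none of their adaptors. Ptpn6 (SHP-1), a phosphatase recruited by the inhibitory motif, had 10.1 and 3.02, and Ptpn11 (SHP-2), the most abundant of the list, 59.9 and 66.3. In this list only the kinase Fyn changed 3-fold, with 0.591 and 14.6. A list of 13 genes held MHC class I heavy chains, some of them Ly49 ligands, and their light chain B2m, and none changed 3-fold. B2m was the most abundant (194 and 211), followed by the classical heavy chains H2-D1 (185 and 109) and H2-K1 (153 and 121). H2-Q6, H2-Q7 and H2-Q10 were below 1 in both conditions, and H2-Q1 had 0.0413 and 1.13. The 13 genes summed to 585 and 492. The median log2 change was 0 for the adaptors and effectors and -0.04 for the class I list, beside 0 for all genes.

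Of 17 natural killer cell markers, 13 had an FPKM below 1 in both, and Ncr1, Nkg7, Prf1, Gzma, Xcl1 and Klrk1 were listed at 0 in both. The list summed to 62.9 and 58.7, most of it Itga2 (59.0 and 49.9), an integrin that epithelial cells express too. By direction, 8 markers were higher and 3 lower in PID+ cells. Besides Itga2, those with an FPKM of at least 1 in a condition were Cd244a (0.0114 and 7.72), at least 3-fold lower, and Ccl5 (1.52 and 0.0307) and Eomes (2.15 and 0.993), higher but below 3-fold on the scale used. All 10 T cell markers were below 1 (summed FPKM of 0.0949 and 0.491), of which Thy1 was the highest, with 0.377 in PID- cells, and so were all 6 B cell markers (0.180 and 0.0828), of which Cd79a was the highest, with 0.126 in PID+ cells. Ptprc (CD45), which all leukocytes carry, had 0.0264 in PID+ and 0.00811 in PID- cells. The list of 12 pan-leukocyte and myeloid markers summed to 51.2 and 46.1, nearly all of it Cd14 (29.1 and 28.6) and Cd68 (21.8 and 16.8). Among 17 transcription factors of natural killer cells, Zeb2 (0.821 against 22.9) and Zbtb16 (0.330 against 5.26) were lower in PID+ cells, none was 3-fold higher, and Id2 was the most abundant, with 89.9 and 72.0.

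In 3 other marker lists, 1 gene each was at least 3-fold higher along with the Klra genes. Mcpt8, a basophil protease, had FPKM values of 82.5 and 9.60, and the other 9 mast cell and basophil markers were below 1 in both. Ppbp, a platelet chemokine, had 2321 and 231, and of the other 7 platelet and megakaryocyte markers, 6 were below 1 in both. Ptprb, an endothelial phosphatase, had 14.7 and 0.0244. Of the 10 endothelial markers, 7 were below 1 in both conditions. By direction 9 were higher in PID+ cells, beside 41.0% of all genes, a share that counts 4232 genes at 0 in both conditions. Some were higher by little (Pecam1, 0.0960 and 0.0931) and others by more (Kdr, 3.33 and 1.01, and Eng, 1.08 and 0.507), and Erg was listed at 0 in both. The median log2 change of the endothelial list was 0.13, against 0 for all genes. These 3 lists summed to 83.3 against 10.5, 2323 against 234 and 20.0 against 1.99. Their part in the result was not tested.

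The labelled cell type was checked on epithelial markers, of which 14 of 16 had an FPKM of at least 2 in a condition. Krt19 had the highest mean of the conditions (2469 and 2073), although Krt18 (2843 and 1199) and Krt8 (2745 and 1319) were above it in PID+ cells. Epcam (401 against 124), Cldn7 (274 against 79.4), Elf3 (103 against 26.3) and Grhl2 (31.1 against 7.38) were at least 3-fold higher in PID+ cells. Cdh17 (1.67 against 25.9) and Cdx2 (0.542 against 8.04), which mark intestinal epithelium, were lower. Of the other intestinal markers in the list, Vil1 was near 0 in both conditions (0.175 and 0.0614) and Cdx1 was listed at 0 in both. The 10 fibroblast markers summed to 22.2 and 1031, with Vim (19.1 against 997) the most abundant. Col1a1 (2.32 against 11.9), Col1a2 (0.0654 against 11.9), Col3a1 (0.339 against 6.35) and Dcn (listed at 0 against 2.39) were also at least 3-fold lower in PID+ cells. The median log2 change was 1.03 for the epithelial and -1.31 for the fibroblast markers, and 0 for the natural killer cell markers.

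The PID allele and the Klra genes are on the same chromosome. Rosa26 (from 113067428 to 113077333 on chromosome 6) lies 16.8 Mb before the first Klra gene of the table. Its neighbours Thumpd3 (34.6 in PID+ and 25.9 in PID- cells) and Setd5 (33.4 and 28.5) had log2 changes of 0.40 and 0.22. Gapdh, also on this chromosome, had FPKM values of 2570 and 1666, a difference of 0.62 on the log2 scale. Over 413 genes of chromosome 6 whose FPKM averaged 5 or more, the median log2 change was 0.34. Over all 9341 genes that averaged as much, it was -0.0012. Of the 413, 16 were at least 3-fold higher in PID+ cells, including Klra1, Klra4 and Klra8, and 4 were at least 3-fold lower. By a looser cut, an FPKM reaching 2 in either condition, 229 of 11035 genes (2.08%) on all chromosomes were at least 3-fold higher. In windows of 10 Mb along chromosome 6 the medians ran from 0.13 to 0.60. The median was 0.29 from 110 to 120 Mb (48 genes), which holds Rosa26, and 0.46 from 120 to 130 Mb (52 genes). From 130 to 140 Mb it was 0.43 (22 genes, among them Klra1, Klra4 and Klra8). Klra1 and Klra8 averaged 5 or more only through their PID+ values, by which they were chosen. The counts and medians of chromosome 6 thus include members. The strain of origin of the Klra genes in each line was not tested.

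The genes outside the family whose pair of levels was most like that of Klra4 were found by distance in log2(FPKM + 1) over the 2 conditions. The 5 nearest were Tmc4 (distance 0.20, FPKM values of 173 and 47.4), Lars2 (0.28, 174 and 50.3), Lsr (0.31, 153 and 34.5), Ccn1 (0.32, 165 and 51.2) and Fabp5 (0.33, 219 and 39.0). With only 2 values per gene, this describes a level and a ratio and no more.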

How the data were processed

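RNA was sequenced from PID+ and PID- cells, with 3 samples per condition. According to the study's methods and the submitters' processing notes, the authors removed adapters from paired-end reads with CutAdapt. They aligned the reads with TopHat and Bowtie2 to GRCm38.p3 with an annotation of protein coding genes. They merged the 3 sets of reads of a condition and deposited the FPKM that CuffDiff calculated, with interval bounds. The release of the annotation was not given in the sources used here, nor was the depth, and how reads with several places were divided is not stated. The table's treated condition was read as PID+ and its untreated condition as PID-, after the treatments in the labels.

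Genes with a status other than OK in a condition (7) were left out. Symbols matched 21734 of 21966 identifiers. Log2 ratios used a pseudocount of 1. Fragments were estimated from FPKM times transcript length less 190 bases, the best of 31 corrections tried. With it, 97.3% of 679 values in PID+ and 97.8% of 638 in PID- cells, from genes with 1 transcript, lay within 0.1 of a whole number, and the FPKM of 1 fragment in PID+ cells was 1.37 times that in PID- cells. Positions, transcripts and coding sequences came from Gencode M21 (GRCm38), and identity was calculated on coding bases in place of the planned protein comparison. The named genes are all Klra genes, the genes of each list with an FPKM of at least 1 in a condition that changed 3-fold, each list's most abundant gene, the 3 nearest genes on each side and the reference genes Thumpd3, Setd5 and Gapdh. Further genes named among adaptors, class I genes, neighbouring receptors and markers were chosen after their values were seen. The members and lists were chosen with earlier results of these data known. The fold calls and the value of a fragment were tested on data with known values put in, which checks the code only. The sequence comparisons were not tested in this way. Software was Biopython 1.88, scipy 1.17.1, pandas 2.3.3, numpy 2.4.6 and matplotlib 3.10.9 under Python 3.11.15.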

Additional observations from a re-analysis of the deposited data

How the results depend on the processing

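No paired analysis was possible because the deposited values are pooled per condition, and leaving out each replicate in turn was not run for the same reason. The direction of the 5 members was fixed by their choice and is no sign of stability. With equal totals, equal upper quartiles, equal Gapdh, the chromosome median subtracted or a pseudocount of 0.1, the member that fell below 3-fold was Klra4 with Gapdh set equal, at 1.44. That scaling moved the median of genes averaging an FPKM of 5 or more to -0.58, and relative to this Klra4 was at 2.02. The summed family gave 2.30, most of it Klra4, so it says little of the other 4 members. By intervals that do not overlap, 3 members were higher. With a pseudocount of 0.1, 3 of the other Klra genes and 3 of the Klrb, Klrc, Klrd and Klrk genes changed 3-fold. Of the latter, 0 changed 3-fold with Gapdh set equal and with the chromosome median subtracted, and 0 had intervals apart. The number of all genes at least 3-fold higher was 621 with a pseudocount of 0.1 and 76 with Gapdh set equal. By intervals that do not overlap, with no fold threshold, 41 were higher. The causes were not tested. Between pseudocounts of 1 and 0.1, the log2 change of Klra1, listed at 0 in PID- cells only, moved from 3.56 to 6.77. That of Klra4 moved from 2.06 to 2.08, and that of Klrd1, near 0 in both conditions, from 0.05 to 0.45.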
